A study of Mus musculus with 6 samples.

Results

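The Wnt genes examined here are the ligands, the enzyme Porcn that prepares them for release, the receptors, the secreted antagonists, the R-spondins and the feedback and target genes of the pathway. They were chosen by gene symbol as members of the pathway, with earlier results of these data known. Of 46 symbols, 45 had a probe set with exactly 1 annotated gene symbol, out of 20239 such genes on the array, and Tcf7 was not analysed here. They comprised 16 ligands, 12 receptors, 9 secreted antagonists, 3 R-spondins, 4 feedback and target genes and Porcn. Total RNA came from isolated C57BL/6 mouse pericytes, the mural cells of capillaries, and was biotin-labelled for 1-colour arrays. The 3 control arrays had cells kept for 5 days without platelet-derived growth factor BB (PDGF-BB), and the 3 PDGF-BB arrays had cells given 100 ng/ml of it for 5 days. PDGF-BB is the principal ligand of the receptor tyrosine kinase PDGFR-β, through which pericytes are recruited to vessels. The labels do not say how the pericytes were purified or whether the arrays of a group came from separate isolations, so the replicate spread behind each p-value may be technical only.

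Wnt proteins are lipid-modified by the acyltransferase PORCN, carried out of the cell by WLS and bound by frizzled (FZD) receptors. In the canonical branch, FZD acts with LRP5 or LRP6 to stabilise β-catenin, which then works on DNA with TCF/LEF factors. In the non-canonical branch, ligands such as WNT5A act through FZD with ROR1, ROR2 or RYK on cell shape and migration. Secreted frizzled-related proteins (SFRPs, including FRZB) and WIF1 bind Wnt ligands, Dickkopf proteins (DKKs) bind LRP5 and LRP6, and R-spondins prolong the life of the receptors by removing the ubiquitin ligases ZNRF3 and RNF43. In vessels, the pathway is known for its role in the endothelial barrier of the brain and retina, with FZD4 as a receptor.

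The promoters of the Wnt genes that passed the test are shown because those genes are the ones the results turn on. RefSeq's promoter table (GRCm38.p6) had an entry for 32 of the 45 genes and for 5 of the 10 that passed, Fzd1, Fzd7, Ror2, Sfrp2 and Dkk2. Dkk1, which did not pass, is added because it held the most matches. Each sequence is the 250 bases before a transcript start, 5′ to 3′ on the strand of the gene, and capitals mark a match to TCF/LEF letters.
Fzd1 (chr5:4758217-4758466, minus strand): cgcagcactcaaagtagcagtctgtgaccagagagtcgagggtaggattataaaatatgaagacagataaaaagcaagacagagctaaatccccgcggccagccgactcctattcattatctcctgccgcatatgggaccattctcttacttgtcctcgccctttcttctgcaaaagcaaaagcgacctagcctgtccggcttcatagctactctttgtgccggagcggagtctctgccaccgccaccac
Fzd7 (chr1:59481897-59482146, plus strand): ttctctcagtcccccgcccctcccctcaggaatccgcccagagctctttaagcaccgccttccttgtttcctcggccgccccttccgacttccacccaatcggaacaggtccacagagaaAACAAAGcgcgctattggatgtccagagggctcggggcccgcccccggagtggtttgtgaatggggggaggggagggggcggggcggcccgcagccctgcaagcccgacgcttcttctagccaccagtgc
Ror2 (chr13:53286125-53286374, minus strand): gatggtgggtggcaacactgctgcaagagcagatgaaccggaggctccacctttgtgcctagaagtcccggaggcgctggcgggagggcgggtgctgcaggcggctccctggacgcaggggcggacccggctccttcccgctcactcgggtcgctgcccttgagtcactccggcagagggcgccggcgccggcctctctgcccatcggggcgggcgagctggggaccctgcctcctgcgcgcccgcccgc
Sfrp2 (chr3:83766071-83766320, plus strand): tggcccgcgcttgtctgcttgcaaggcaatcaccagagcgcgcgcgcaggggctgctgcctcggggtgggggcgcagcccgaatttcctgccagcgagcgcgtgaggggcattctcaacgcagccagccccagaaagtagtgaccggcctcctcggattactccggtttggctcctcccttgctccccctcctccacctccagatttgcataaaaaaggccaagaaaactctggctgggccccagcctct
Dkk2 (chr3:132085042-132085291, plus strand): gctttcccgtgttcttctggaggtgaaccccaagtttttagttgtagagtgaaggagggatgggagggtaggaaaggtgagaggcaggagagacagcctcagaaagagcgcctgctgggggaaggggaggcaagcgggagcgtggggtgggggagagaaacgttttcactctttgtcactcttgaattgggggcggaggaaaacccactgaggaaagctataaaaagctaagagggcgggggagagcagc
Dkk1 (chr19:30549497-30549746, minus strand): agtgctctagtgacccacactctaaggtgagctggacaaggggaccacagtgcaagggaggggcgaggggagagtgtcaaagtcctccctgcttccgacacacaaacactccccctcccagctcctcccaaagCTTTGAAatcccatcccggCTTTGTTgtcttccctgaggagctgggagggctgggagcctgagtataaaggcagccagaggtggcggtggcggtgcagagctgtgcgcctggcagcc

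The letters searched were CTTTG followed by AA, by AT, by TT or by TA, on both strands, over windows of 300 bases that also took in the 50 bases after the start. Such letters also satisfy the consensus of SOX factors, which share the DNA-binding fold of TCF/LEF. In Fzd7, a receptor whose level fell, the match AACAAAG began 130 bases before the start. In Dkk1 the match CTTTGAA began 117 bases before the start, and a further match lay 98 bases before it. Fzd1, Ror2, Sfrp2 and Dkk2 held no such letters in the window. Of 38 windows of the Wnt genes (some genes have several), 6 (15.8%) held a match, against 16.9% of 32851 windows of all genes. The median GC content was 66.5% in the windows of the Wnt genes and 52.7% in all windows. A match describes the letters and does not show a bound site.

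Expression is given as the deposited log2 value made with RMA, and a change is the log2 difference of PDGF-BB minus control. A gene was called when its limma adjusted p, Benjamini-Hochberg corrected over the 20239 genes, was under 0.05. The median log2 value was 8.43 to 8.46 on all 6 arrays. Values of different genes come from different probes. Their levels were therefore compared only with the background level set below and with Cd3e, as a rough guide. A background level of 7.35 was set from 18 markers of blood lineages taken as absent (lymphocytes, mast cells, red cells), at the 90th percentile of their means. Of these markers 2 had both means above it, with Cd3e the highest (8.27 in control and 8.22 with PDGF-BB), so a value just above the level does not show expression. Of the 45 Wnt genes, 36 had both group means above it and 8 had both below it. Among pericyte and mural markers, Pdgfrb stood at 12.98 ± 0.11 without PDGF-BB and 12.85 ± 0.09 with it (SD, n = 3 each), while Rgs5 (7.77 and 7.71) lay near the background level and Des (7.24 and 7.32) below it; of 12 such markers Anpep rose, and Acta2, Tagln and Cd248 fell. None of 9 endothelial, 8 epithelial and 5 adipocyte markers passed in limma, with 1 endothelial marker (Cdh5) and none of the others at an unadjusted p under 0.05. Of 8 macrophage markers, Cd68 (log2 change -0.42) and Lyz2 passed, both lower with PDGF-BB; Lyz2 and 6 others had both means below the background level. The summed log2 value of the 8 was 53.4 to 53.7 on control and 52.2 to 52.8 on PDGF-BB arrays. The part of such cells in the results below was not tested. In cultures measured in bulk, fewer cells expressing a gene and less RNA per cell cannot be told apart.

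PDGF-BB lowered 9 of the 45 Wnt genes and raised 1. The 9 were Porcn, the receptors Fzd1, Fzd2, Fzd7 and Fzd8, the antagonists Sfrp1, Sfrp2 and Dkk2, and the R-spondin Rspo3; the receptor kinase Ror2 rose. The 10 called genes make 22.2% of the Wnt genes, near the 21.5% of all genes called, so the share called is not particular to them. By direction, 20.0% of the Wnt genes fell against 11.4% of all genes, and 2.22% rose against 10.1% of all genes. The median log2 change was -0.12 for the Wnt genes and -0.02 for all genes. Of the 45 changes 34 were negative, against 11325 of 20239 for all genes. In 15 of the 45 (33.3%), the control and PDGF-BB arrays did not overlap, against 37.6% of all genes. Arrays of the same replicate number deviated together across the groups, though the labels state no pairing. With the number as a block, 12 Wnt genes fell and 2 rose, against 12.5% and 10.9% of all genes (23.4% in either direction). Repeated quantile normalization left no Wnt gene called higher.

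**Figure D1:**
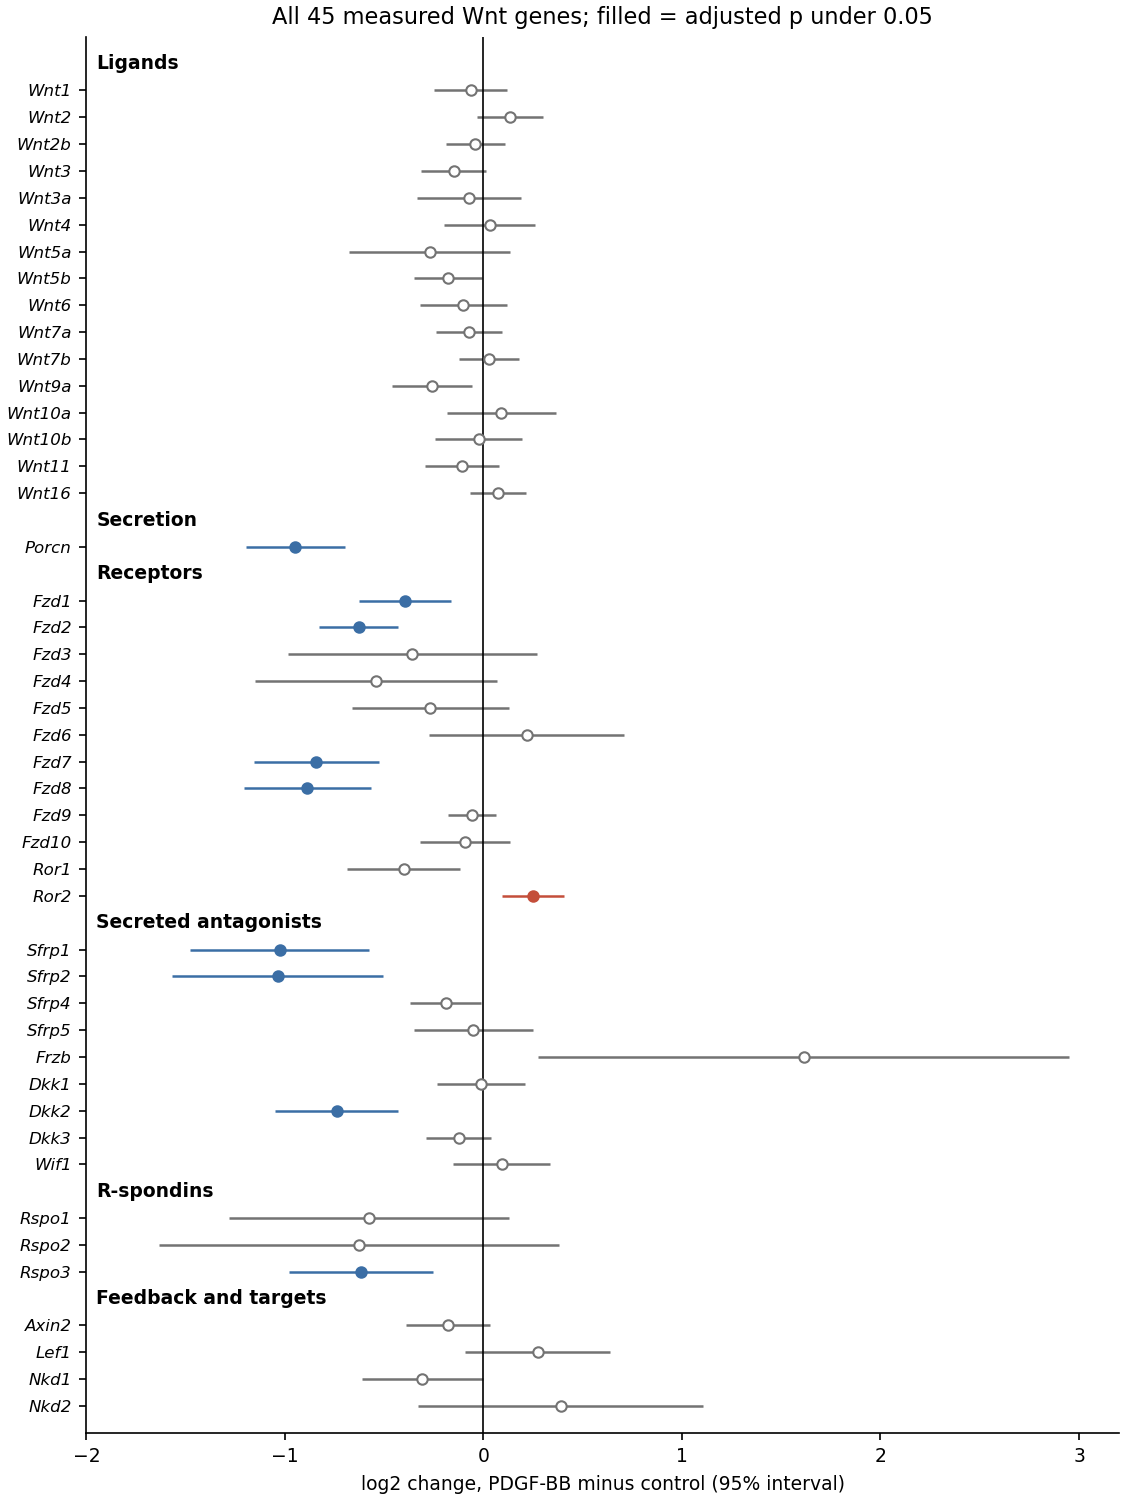
Log2 change (PDGF-BB minus control, x axis) with its 95% interval for the 45 measured Wnt genes, grouped by role; filled points passed the test (blue lower, red higher) and open points did not. The 16 ligands lie between -0.27 and 0.13, the 12 receptors between -0.89 and 0.25 and the 9 antagonists between -1.04 and 1.61.

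None of the 16 ligand genes passed in limma. At an unadjusted p under 0.05 there were 2 (12.5%, against 32.7% of all genes), and with the replicate block 0 passed. Their log2 changes ran from -0.27 to 0.13, and 5 of the 16 had both means below the background level (Wnt1, Wnt2b, Wnt3, Wnt7a and Wnt16), where a change may go unseen. The same may hold for Wnt2, Wnt3a, Wnt4, Wnt6, Wnt7b, Wnt10b and Wnt11. Their means lay above the level but under those of Cd3e, a marker taken as absent. Wnt5a, the best known non-canonical ligand, measured 10.11, 9.89 and 10.08 on control arrays 1 to 3 and 9.79, 9.38 and 10.10 on PDGF-BB arrays 1 to 3. PDGF-BB array 3 lay within the control range, and the change was -0.27 (95% interval -0.68 to 0.14, adjusted p = 0.35, limma).

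The ligands with the smallest p were Wnt9a and Wnt5b. Wnt9a, a ligand of the canonical branch, measured 8.98, 8.94 and 8.91 in control and 8.80, 8.73 and 8.51 with PDGF-BB. All 3 PDGF-BB values lay below the controls, with a change of -0.26 (SE 0.08, adjusted p = 0.073, limma). Wnt5b, the close relative of Wnt5a, measured 8.29, 8.36 and 8.43 against 8.27, 8.21 and 8.07. Its groups did not overlap either, though the gap at the nearest arrays was small, and the change was -0.18 (SE 0.07, adjusted p = 0.14, limma).

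Porcn, which attaches the fatty acid that Wnt proteins need for release and receptor binding, had the smallest p of all the Wnt genes. It measured 9.92, 9.78 and 10.02 on the control arrays and 9.05, 8.75 and 9.07 on the PDGF-BB arrays. The groups lay well apart, and Porcn was 1.93-fold lower with PDGF-BB (log2 change -0.95, 95% interval -1.20 to -0.70, adjusted p = 0.002, limma). Wls, the carrier of the acylated ligand and not one of the 45 genes, had a change of -0.14 (95% interval -0.32 to 0.03, adjusted p = 0.25, limma).

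Of the 10 frizzled receptor genes 4 fell (40%, against 11.4% of all genes) and none rose (against 10.1% of all genes). Of their 10 changes 9 were negative, against 11325 of 20239 for all genes. Their median log2 change was -0.38, against a median of -0.02 for all genes. All 10 had both group means above the background level, though those of Fzd3 and Fzd10 lay under the means of Cd3e, a marker taken as absent. Fzd8 measured 11.12, 11.30 and 11.30 in control and 10.48, 10.04 and 10.53 with PDGF-BB. PDGF-BB array 2 was the lowest, and the gene was 1.85-fold lower (log2 change -0.89, SE 0.14, adjusted p = 0.005, limma). Fzd7, often linked to stem and progenitor cells and, like Dkk1, with TCF/LEF letters in the promoter printed above, measured 11.83, 12.19 and 12.33 against 11.24, 11.18 and 11.41. Its control arrays were more spread than the PDGF-BB arrays but did not reach them, and it was 1.79-fold lower (log2 change -0.84, SE 0.13, adjusted p = 0.0057, limma).

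Fzd2, which can bind WNT5A, measured 12.57, 12.44 and 12.46 in control and 11.75, 11.82 and 12.01 with PDGF-BB. Every PDGF-BB array lay below every control array, and the gene was 1.55-fold lower (log2 change -0.63, SE 0.08, adjusted p = 0.0032, limma). Fzd1, close in sequence to Fzd2 and Fzd7, measured 12.64, 12.70 and 12.67 against 12.32, 12.07 and 12.44. The control arrays agreed within 0.1 log2 units while the PDGF-BB arrays spread, and the change was the smallest of the 4 (1.31-fold lower, log2 change -0.39, SE 0.10, adjusted p = 0.029, limma). Fzd1 no longer passed when control array 1 (adjusted p = 0.055), 2 (0.082) or 3 (0.077) or PDGF-BB array 1 (0.068) was left out. Whether the probes of Fzd1, Fzd2 and Fzd7 share sequence was not checked.

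The other 6 frizzled genes did not pass. Fzd4, the receptor of the retinal vascular pathway, measured 8.73, 9.53 and 9.30 in control and 8.64, 8.24 and 9.06 with PDGF-BB. Control array 1 lay inside the PDGF-BB range, and the change was -0.54 (95% interval -1.15 to 0.07, adjusted p = 0.20, limma). The change was -0.34 without PDGF-BB array 2 and -0.77 without control array 1. Fzd6 had the only positive change among the frizzleds (0.22, 95% interval -0.27 to 0.71), and those of Fzd3, Fzd5, Fzd9 and Fzd10 ran from -0.36 to -0.06.

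The ROR kinases, which serve as receptors or co-receptors for WNT5A, had changes of opposite sign. Ror2 measured 10.97, 10.86 and 10.94 in control and 11.27, 11.10 and 11.15 with PDGF-BB. All PDGF-BB values were higher, by 1.19-fold (log2 change 0.25, SE 0.07, adjusted p = 0.037, limma). This small change lost its call after repeated quantile normalization (adjusted p = 0.067) and whenever 1 array was left out: without control array 1 (0.053), 2 (0.11) or 3 (0.085), or without PDGF-BB array 1 (0.11), 2 (0.057) or 3 (0.078). Ror1 measured 9.83, 10.05 and 10.14 against 9.38, 9.69 and 9.74.

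Every PDGF-BB value of Ror1 was below the controls, and the differences between arrays of the same number were -0.44, -0.36 and -0.40. Its log2 change of -0.40 had an adjusted p of 0.056 in limma and of 0.0082 with the replicate block. The difference between the changes of Ror1 and Ror2 was not tested.

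**Figure D2:**
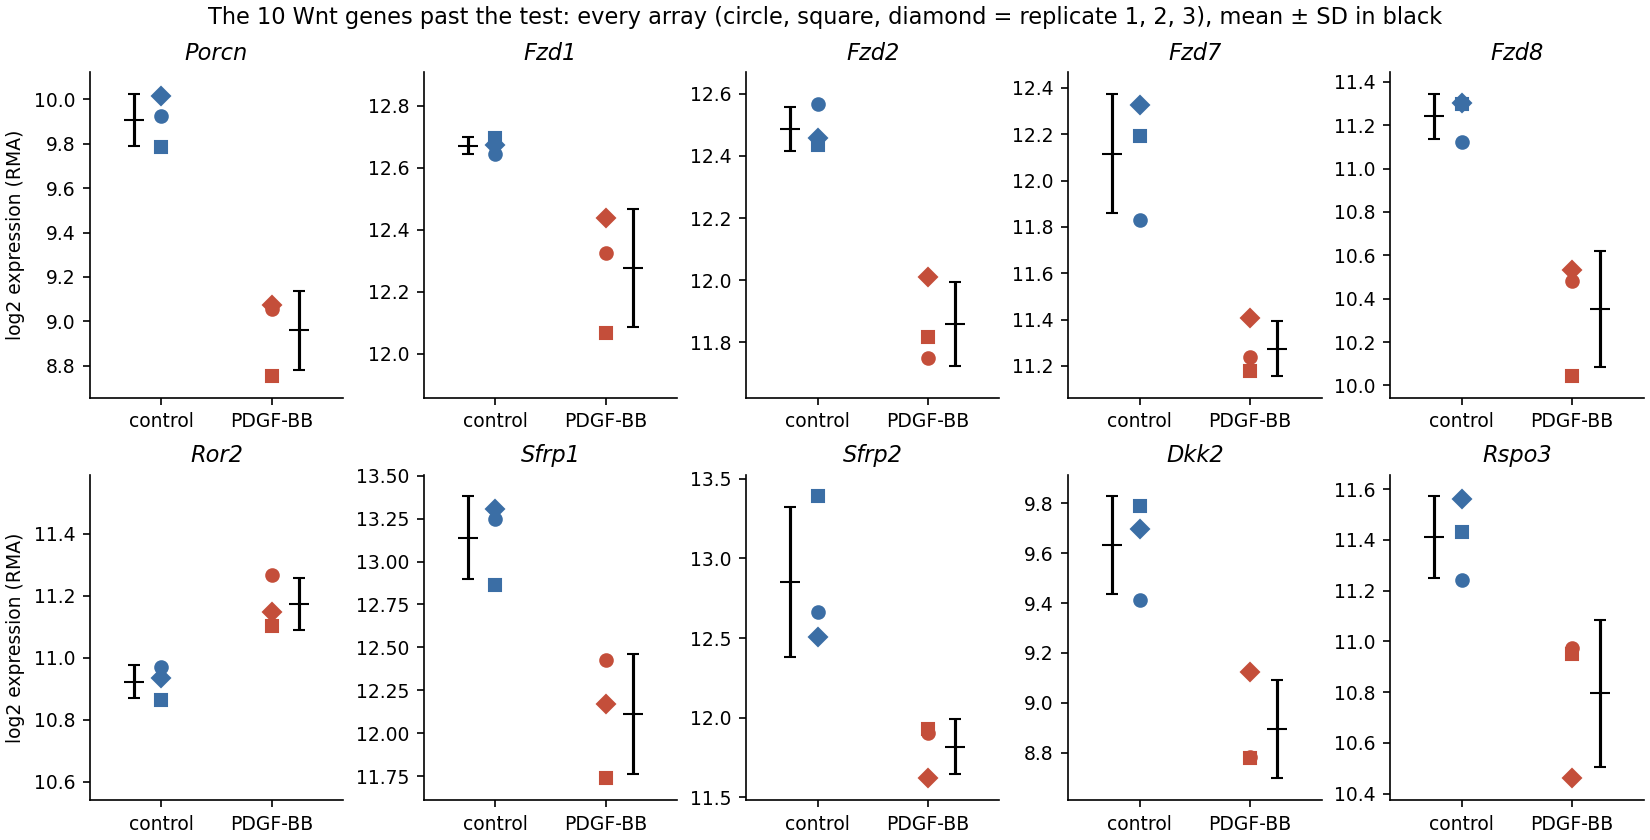
Log2 expression (y axis, a scale of its own in each panel) of the 10 Wnt genes that passed the test, in control (blue) and PDGF-BB (red) arrays; circles, squares and diamonds are replicates 1, 2 and 3, and black bars are mean ± SD of 3 arrays. PDGF-BB arrays lie below all control arrays in 9 panels and above them in that of Ror2.

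Secreted antagonists had both the lowest and the highest log2 changes among the Wnt genes. Of the 9 genes 3 fell (33.3%, against 11.4% of all genes), and 3 others (Sfrp4, Sfrp5 and Wif1) had both means below the background level. Sfrp1, a secreted Wnt-binding protein, measured 13.25, 12.86 and 13.30 in control and 12.43, 11.74 and 12.17 with PDGF-BB. The groups lay apart in spite of the spread within each, and Sfrp1 was 2.04-fold lower (log2 change -1.03, 95% interval -1.48 to -0.57, adjusted p = 0.01, limma). Sfrp2, its relative, measured 12.66, 13.39 and 12.51 against 11.90, 11.93 and 11.62.

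Control array 2 was highest for Sfrp2, and the gene was 2.05-fold lower (log2 change -1.04, 95% interval -1.57 to -0.51, adjusted p = 0.018, limma). Sfrp2 no longer passed when array 1 or 3 of the PDGF-BB group was left out (adjusted p = 0.052 and 0.063). Dkk2, a ligand of LRP6, measured 9.41, 9.79 and 9.70 in control and 8.78, 8.78 and 9.12 with PDGF-BB. It was 1.67-fold lower with no overlap between the groups (log2 change -0.74, SE 0.13, adjusted p = 0.0085, limma).

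Frzb, the SFRP also called sFRP3, had a change of the opposite sign. It measured 7.60, 7.70 and 8.73 in control and 9.34, 8.66 and 10.87 with PDGF-BB. Control array 3 lay just above PDGF-BB array 2, so the groups overlapped, and number 3 was the highest in both. The mean change was 1.61 (3.06-fold, 95% interval 0.28 to 2.95), with an adjusted p of 0.091 in limma. The control mean of 8.01 lay under that of Cd3e (8.27), a marker taken as absent, so expression in control is not shown. Between arrays of the same number the differences were 1.74, 0.95 and 2.15, and with the replicate block the adjusted p was 0.0046; leaving out 1 array without the block, it was 0.044 without PDGF-BB array 2 and 0.082 to 0.22 otherwise. Without PDGF-BB array 3 the change was 0.99 (adjusted p = 0.15, limma).

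Dkk3 and Dkk1 had changes of -0.12 (95% interval -0.29 to 0.04) and -0.01 (-0.23 to 0.21). Both means of Dkk1 (7.68 and 7.67) lay under those of Cd3e, a marker taken as absent. Sfrp4 measured 6.53, 6.45 and 6.53 against 6.45, 6.27 and 6.22, all below the background level, with a change of -0.19 (adjusted p = 0.13, limma). Sfrp5 and Wif1 had changes of -0.05 and 0.09, also with both means below that level.

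All 3 R-spondin genes had negative changes, as did 11325 of all 20239 genes. Of the 3, 1 passed (33.3%, against 11.4% of all genes called lower). Rspo3, a secreted amplifier of Wnt signalling that acts on vessels, measured 11.24, 11.43 and 11.56 in control and 10.97, 10.95 and 10.46 with PDGF-BB. Each PDGF-BB array was lower than every control array, by 1.53-fold on average (log2 change -0.62, 95% interval -0.98 to -0.26, adjusted p = 0.029, limma). The call was lost without control array 2 (adjusted p = 0.081) or 3 (0.091).

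Rspo1 measured 10.55, 10.32 and 9.55 against 10.06, 9.30 and 9.33. The groups overlapped, since control array 3 was low, while the differences within a number were all negative (-0.49, -1.02 and -0.22); the change of -0.58 had an adjusted p of 0.24 in limma and 0.04 with the replicate block. Rspo2 measured 8.81, 10.41 and 9.12 against 8.69, 9.34 and 8.43. It too overlapped, array 2 being the highest in both groups, with a change of -0.63 and an adjusted p of 0.38 in limma and 0.047 with the replicate block. Its differences within a number were -0.13, -1.07 and -0.69. Without control array 2 the change of Rspo2 was -0.15 (adjusted p = 0.80), and without control array 1 it was -0.95 (0.19). That of Rspo1 was -0.37 without control array 1 (0.49) and -0.87 without control array 3 (0.064).

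**Figure D3:**
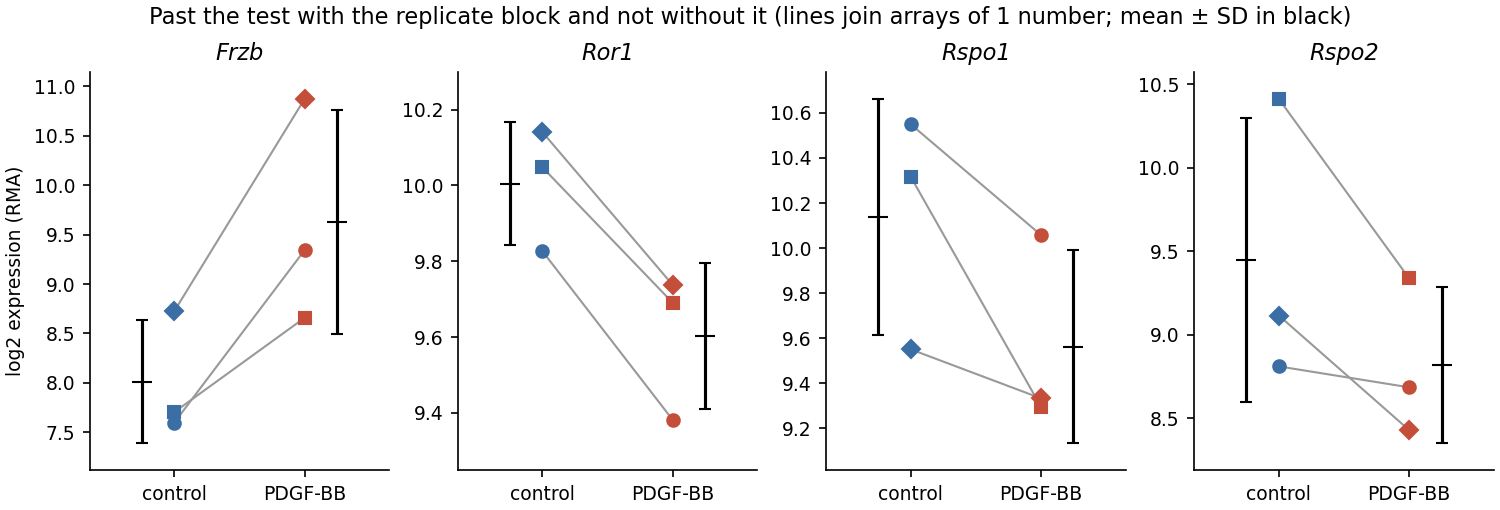
Log2 expression (y axis, a scale of its own in each panel) of the 4 Wnt genes called with the replicate block and not without it; grey lines join control (blue) and PDGF-BB (red) arrays of the same replicate number, and black bars are mean ± SD of 3 arrays. All 3 lines rise for Frzb and all 3 fall for Ror1, Rspo1 and Rspo2, although the groups overlap for each but Ror1.

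Among feedback and target genes of the canonical branch, none of 4 passed in limma, 1 had an unadjusted p under 0.05 (against 32.7% of all genes), and none passed with the replicate block. Axin2, the scaffold whose transcription is widely used as a readout of β-catenin signalling, measured 8.19, 8.10 and 8.37 in control and 8.10, 8.10 and 7.92 with PDGF-BB. Its groups overlapped, and the change was -0.18 (95% interval -0.39 to 0.03, adjusted p = 0.23, limma). Both means of Axin2 (8.22 and 8.04) lay under those of Cd3e, a marker taken as absent, so a change may go unseen. Nkd1, a feedback inhibitor that binds Dishevelled, measured 8.70, 9.19 and 8.86 against 8.50, 8.62 and 8.71, with overlap at control array 1 and PDGF-BB array 3 and a change of -0.31 (SE 0.13, adjusted p = 0.15, limma). Leaving out 1 array, the change of Nkd1 was -0.17 without control array 2 and -0.42 without control array 1. That of Axin2 was -0.10 without control array 3 and -0.24 without control array 2. Nkd2 and the transcription factor Lef1 had positive changes of 0.39 (95% interval -0.33 to 1.11) and 0.27 (-0.09 to 0.64). The control mean of Lef1 lay below the background level.

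Genes of the pathway outside these 45 were read from a list of 60, of which 15 fell (25%) and 3 rose (5%), against 11.4% and 10.1% of all genes. Their median log2 change was -0.06. The co-receptor Lrp6 measured 11.67, 11.77 and 12.09 in control and 10.99, 10.69 and 11.19 with PDGF-BB, 1.85-fold lower without overlap (log2 change -0.89, SE 0.16, adjusted p = 0.0081, limma). Its partner in function, Lrp5, had a change of 0.22 (95% interval -0.10 to 0.53, adjusted p = 0.33, limma), which was 0.12 to 0.35 with 1 array left out. The difference between the changes of Lrp5 and Lrp6 was not tested.

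Ctnnb1, which encodes β-catenin, measured 12.83 ± 0.07 and 12.84 ± 0.03 (SD, n = 3 each), a change of 0.01 with a 95% interval of -0.13 to 0.14. Tcf7l2, its DNA-binding partner TCF4, was 1.80-fold lower (adjusted p = 0.0044, limma), and the co-activator genes Pygo1, Bcl9 and Bcl9l were 1.75-fold, 1.46-fold and 1.37-fold lower (adjusted p = 0.0046, 0.0027 and 0.0027). Tcf7l1, another TCF gene, and Tle2, which encodes a co-repressor of TCF, were 1.29-fold and 1.45-fold lower (adjusted p = 0.012 and 0.018, limma). Tle2 lost its call in some fits with 1 array left out (adjusted p up to 0.065, limma). The co-activator gene Pygo2 and Ctnnbip1, which encodes an inhibitor of β-catenin, did not pass (changes of 0.08 and 0.03). Neither did the co-repressor genes Tle1, Tle3 and Tle4 (-0.24, -0.03 and -0.06). Csnk1e, a kinase of Dishevelled and LRP6, was 1.31-fold lower (adjusted p = 0.0029, limma). The 3 that rose were Dvl1, a Dishevelled gene (1.22-fold, adjusted p = 0.011), Tpbg (1.23-fold, 0.029) and the planar polarity gene Vangl1 (1.15-fold, 0.049). Other genes of that branch fell: Prickle2, Daam1 and Vangl2 (log2 changes -0.73, -0.49 and -0.30, adjusted p = 0.0085, 0.045 and 0.039, limma). So did the non-canonical co-receptor gene Ryk (-0.26, 0.03). Prickle1, Celsr1, Celsr2 and Celsr3 did not pass. With the replicate block, Vangl2 (adjusted p = 0.06) and Ryk (0.052) did not pass. Daam1 passed in no fit with 1 array left out (0.056 to 0.13). Vangl2 and Ryk lost their call in some (up to 0.11 and 0.094). The Dishevelled genes did not move together: Dvl3 was 1.25-fold lower (adjusted p = 0.022, limma) and Dvl2 had a change of 0.003. Dvl3 lost its call in some fits with 1 array left out (adjusted p up to 0.077, limma). Tpbg no longer passed (adjusted p = 0.058 to 0.091) when any 1 control array, or array 1 or 3 of the PDGF-BB group, was left out, and neither did Vangl1 with the replicate block (0.069) or with any 1 array left out (0.064 to 0.14). Without control array 2, 9 of the list fell, and without PDGF-BB array 1 or 2, 8 fell; 1 rather than 3 rose without any 1 control array or PDGF-BB array 1 or 3.

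Of 25 genes described as β-catenin targets in other tissues, 11 rose (44.0%, against 10.1% of all genes) and 5 fell (20.0%, against 11.4%), with a median log2 change of 0.10. These genes answer to many other signals too, growth factors among them, and they went both ways. Gja1, the gap junction protein connexin 43, was 3.03-fold higher, and Fosl1, an AP-1 factor, 2.05-fold (log2 changes 1.60 and 1.04, adjusted p = 0.0018 and 0.0022, limma). Ccnd1, cyclin D1, measured 11.92, 12.15 and 12.01 against 12.72, 12.76 and 12.90, and was 1.70-fold higher, as was Myc (adjusted p = 0.0018 and 0.01). Cd44, a hyaluronan receptor, and Plaur, the urokinase receptor, rose 1.37-fold and 1.56-fold (adjusted p = 0.0042 for each).

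Among the targets that fell, Ccn5, a secreted matricellular protein, measured 10.64, 10.98 and 10.83 in control and 9.06, 9.06 and 9.04 with PDGF-BB, 3.39-fold lower (adjusted p = 0.00031, limma). Jag1, a Notch ligand, was 2.43-fold lower and Bmp4, a bone morphogenetic protein, 1.68-fold lower (adjusted p = 0.00047 and 0.0065). Fgf18, a fibroblast growth factor, was 3.31-fold lower (log2 change -1.73). Edn1, the vasoconstrictor endothelin 1, was 4.47-fold lower (log2 change -2.16, SE 0.24, adjusted p = 0.002, limma). Its PDGF-BB mean of 6.81 lay under the background level, so the fall may be underestimated.

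**Figure D4:**
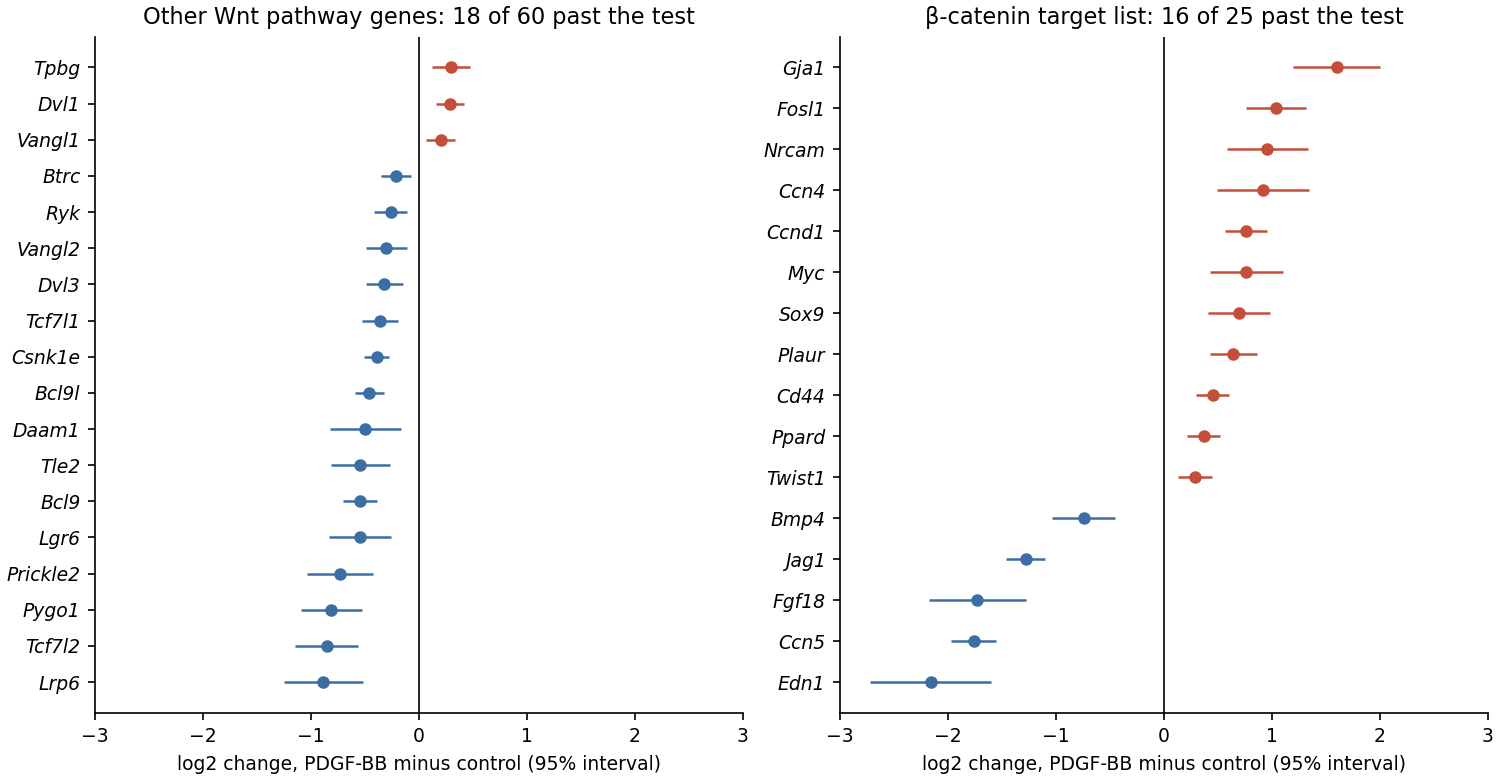
Log2 change (PDGF-BB minus control, x axis) with its 95% interval for the genes past the test among 60 other Wnt pathway genes (left) and 25 genes described as β-catenin targets (right); blue is lower and red higher. On the left 15 of 18 changes are negative, and on the right 11 of 16 are positive.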

How the data were processed

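The authors deposited 1 table of log2 values for 21225 probe sets on 6 arrays, made with RMA (background correction, quantile normalization across arrays and summary per probe set) per the submitters' processing notes; software, probe set definition and filters: not given in the sources used here. The log2 scale was inferred from RMA and from the range of values. GEO's platform annotation gives 20239 probe sets exactly 1 gene symbol, each gene once, and 986 none; the latter entered only an alternative. Groups came from the sample titles.

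All 20239 genes were fitted with the group as the only factor, using lmFit and eBayes of limma 3.58.1 under R 4.3.3; tests were two-sided and Benjamini-Hochberg adjusted over all genes. The fit was tested on simulated data. A fold is 2 raised to the log2 change. Precision is limited by the number of arrays. The described genes are those that passed, in each role up to 2 others with the smallest p, and those with a log2 change of at least 0.5 either way; of the other lists, up to 5 called genes a direction plus Lrp5, Lrp6, Ctnnb1, Wls, Ccnd1 and Myc. Genes named outside this rule were chosen after their values were seen. The genes and lists were chosen with earlier results of these data known.

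Across genes, arrays of the same number in the 2 groups deviated together from their group means (r = 0.25, 0.32 and 0.25 for numbers 1 to 3). For different numbers r was -0.28 to 0.01, which is no separate evidence. Deviations from a group mean cancel within the group, so positive values for the same number force lower ones elsewhere. The arrays of a number may therefore be paired, but the labels do not say what a number shares. For that reason the principal fit left the number out, and the block was kept as an alternative. With the block 14 Wnt genes passed rather than 10. Other batches were not tested. The 13 alternatives were repeated quantile normalization, centring on the median, leaving out genes under the 25th or 50th percentile of mean signal, keeping unnamed probe sets, eBayes with trend and robust, the replicate block, and leaving out each of the 6 arrays.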

Additional observations from a re-analysis of the deposited data

How the results depend on the processing

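Of the 10 called Wnt genes, 6 (Porcn, Fzd2, Fzd7, Fzd8, Sfrp1 and Dkk2) kept direction and call in all 13 alternatives; the other 4 (Fzd1, Ror2, Sfrp2 and Rspo3) kept direction and lost the call in at least 1, as given above. The number called higher was 1, and became 0 after repeated quantile normalization, 2 with the replicate block (Ror2 and Frzb), and 0 to 1 when 1 array was left out; the cause was not tested. The number called lower ranged from 7 to 10 with 1 array left out. With the replicate block 12 Wnt genes fell, Ror1, Rspo1 and Rspo2 in addition, and apart from these, Frzb and Vangl1 the block changed no call of a gene described under the rule. The median change of the Wnt genes was -0.40 rather than -0.12 when the dimmer genes, those under the 50th percentile, were dropped, a filter that leaves 24 of the 45. Of the other 60 pathway genes, 3 rose and 15 fell with all arrays, and 1 to 2 rose and 8 to 12 fell with 1 left out. No gene described under the rule that passed in the principal fit or in an alternative changed sign between them. Dim genes limit the rest: 8 Wnt genes lay below the background level in both groups.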
